A study of Mus musculus with 15 samples.

Results

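A set of 8 candidate regulators of maturation and energy metabolism was followed in cortical fast-spiking interneurons over postnatal life: the coactivators Ppargc1a (PGC-1alpha) and Ppargc1b (PGC-1beta), the estrogen-related receptors Esrra and Esrrg, the respiratory factor Nrf1, and the MEF2 factors Mef2a, Mef2c and Mef2d. The members were taken by symbol, as every probe set that the array annotation gives to 1 of these symbols alone. This gave 8 of the 18193 genes on the array, read by 29 of its 34945 single-gene probe sets. Genes entered the tests when the probe set with their highest mean level was over 5 (log2) on 3 or more of the 15 arrays. This left 9663 genes, among them 7 of the 8 members (all but Nrf1), and 15381 probe sets, among them 19 of the 29. On GRCm38.p6 the genes lie far apart, with Ppargc1a at chr5:51454249-52115853, Esrra at chr19:6910977-6922048, Esrrg at chr1:187608510-188214885, Nrf1 at chr6:30047985-30153458, Mef2a at chr7:67231163-67376456, Mef2c at chr13:83504017-83667079 and Mef2d at chr3:88141941-88172091.

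RNA came from neurons of the G42 mouse line, a transgenic line in which parvalbumin-class basket cells of the cortex carry GFP, and the mice were raised in ordinary housing. Fluorescent cells of the primary somatosensory cortex were aspirated by hand after slices were treated with protease and triturated, from 3 animals at each of P7, P10, P15, P25 and P40 (postnatal days, the last group covering a short range of days from P40), with 23 to 85 cells an array. The RNA was amplified by repeated in vitro transcription and hybridized to whole-genome Affymetrix mouse arrays. All ages share the transgene, and the picked cells stand for the GFP-marked part of the parvalbumin class, not for all of it.

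PGC-1alpha and PGC-1beta bind no DNA themselves. They dock on nuclear receptors and other factors, among them the estrogen-related receptors and NRF1, and raise transcription of nuclear genes for mitochondrial respiration. MEF2 factors are calcium-responsive transcription factors that class IIa histone deacetylases hold in check, and in muscle they act on the Ppargc1a gene. In mouse cortex, PGC-1alpha is concentrated in parvalbumin interneurons, and Pvalb, Syt2, Nefh and Cplx1 are among the transcripts known to depend on it.

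The 3 stretches of 100 bases below were picked because they match binding motifs of these factors. They lie in the members Esrrg and Mef2c and in Syt2, a transcript that changed with age. All are from RefSeq on GRCm38.p6, written 5′ to 3′ on the strand of the gene, with the matched motif in capitals. In Esrrg (chr1:187608906-187609005, plus strand, the bases up to the first of its 4 listed starts) the capitals mark a MEF2 consensus at -22 to -13. It overlaps a TATAAA on the other strand at -19 to -14. The windows of the later Esrrg starts held none of the motifs searched. In Mef2c (chr13:83573507-83573606, plus strand, upstream of the last of its 3 listed starts) they mark AAGGTCA, the short motif of estrogen-related receptors, read on the other strand at -72 to -66. In Syt2 (chr1:134646412-134646511, plus strand, bases -200 to -101) they mark the full response element TCAAGGTCA, read on the other strand at -167 to -159.
Esrrg promoter: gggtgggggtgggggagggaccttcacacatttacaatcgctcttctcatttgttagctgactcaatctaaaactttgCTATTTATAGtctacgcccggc
Mef2c promoter: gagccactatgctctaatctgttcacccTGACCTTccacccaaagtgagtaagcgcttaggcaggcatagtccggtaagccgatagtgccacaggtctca
Syt2 promoter: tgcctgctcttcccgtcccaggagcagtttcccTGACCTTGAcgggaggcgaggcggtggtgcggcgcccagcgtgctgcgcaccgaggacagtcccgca
Both strands of the 250 bases before each start were searched. Among all 32851 windows, 0.508% held the MEF2 consensus, 4.08% AAGGTCA, 0.387% TCAAGGTCA and 12.4% TATAAA. For 7 members, 13 windows were searched, and none held TCAAGGTCA, the cAMP response element TGACGTCA or the NRF1 element. The windows of Ppargc1a (1 window), Esrra, Mef2a and Mef2d held none of the motifs searched. A match says only that these letters are present.

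Of the 8 markers of the labelled cell class, 7 exceeded 5 on 3 or more arrays, and markers of other cells varied by age. The exception was Erbb4, over 5 on 1 array, and Lhx6 averaged 12.11 at P7 and 11.28 at P40. Pvalb was at or under 5 on all 3 arrays of P7 and rose with age, and Gad1, Gad2 and Slc32a1, which make and package GABA, exceeded 5 on all 15 arrays. Of the 6 excitatory markers, 5, Slc17a7 among them, exceeded 5 on none, but Camk2a did on 14 and was brightest at P25 (8.20 ± 0.41, against 5.38 ± 0.36 at P7). Sst, a peptide of another interneuron class, exceeded 5 on 14 arrays. Npy, Crhbp, Cck and Reln, also listed for other interneurons, did on all 15, while Vip, Htr3a and Prox1 did on none. Chodl, listed with Sst, exceeded 5 on 6 arrays, all of them from P7 and P10. Its mean was 9.19 in the P7 group, 5.82 in the P10 group and 3.90 in the P15 group. Cck averaged 8.41 at P7 and 12.29 at P15. The 7 endothelial and mural markers exceeded 5 on no array, and 6 of the 8 microglial markers likewise, while Csf1r exceeded it on 3 arrays of P7 and P10 and C1qb on 2 of P7. The log2 sum of the 6 astrocyte markers ran from 8.48 to 9.98 at P10 and from 6.94 to 10.08 at P25, against 5.46 to 7.55 at the other ages, with Slc1a2 averaging 4.85, 8.44, 4.07, 6.86 and 3.50 from P7 to P40 and Gfap under 5 on every array. The oligodendrocyte markers were highest at P25, where their log2 sum ran from 10.59 to 11.72, against 6.06 to 9.06 at the other ages; 3 of the 5, Mog, Mag and Cldn11, exceeded 5 on no array. The beta-actin control probe sets had their lowest means at P25. The 3′ probe set read 12.70, 11 and 12.88 there, against 13.37 to 14.87 elsewhere. The beta-actin 3′ to 5′ difference, a covariate in some fits below, averaged 5.77, 5.73, 4.50, 5.31 and 3.93 from P7 to P40. It ran from 4.64 to 6.41 on the P7 arrays and from 3.40 to 4.50 on the P40 arrays. These ranges do not overlap, so P40 and P7 differ in this measure as well as in age. The BioDn spiked control read 2.48 and 2.47 on P15 replicates 2 and 3, against 10.36 to 13.51 on the other arrays. Beyond the fits with the beta-actin difference as a covariate, the part of these markers and controls in the differences between ages below was not tested.

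Among the coactivators, Ppargc1a was high at every age and did not pass the test between any ages in its brightest probe set. It read 13.57, 13.59 and 13.70 at P7, 13.16, 13.79 and 13.99 at P10, 13.65, 13.83 and 13.87 at P15, 13.80, 13.97 and 13.73 at P25, and 13.85, 13.29 and 13.56 at P40 (log2 levels). The arrays overlapped between every pair of ages except P25 and P7, where all P25 arrays lay above all P7 arrays. P40 minus P7 was -0.05 (SE 0.18, 95% interval -0.44 to 0.34, adjusted p = 0.84, limma). In P25, where its mean was highest, Ppargc1a averaged 13.83 ± 0.12, against 13.62 ± 0.07 at P7 (SD, n = 3 each), a difference of 0.22 that missed the threshold (adjusted p = 0.37).

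Ppargc1b, the related coactivator, was read by 1 probe set. It gave 8.0, 9.35 and 9.90 at P7, 10.11, 10.56 and 9.54 at P10, 9.90, 10.25 and 10.02 at P15, 9.0, 8.76 and 10 at P25, and 9.89, 9.84 and 10.29 at P40. The P7 arrays spread over almost 2 log2 units and overlapped those of P40. P40 minus P7 was 0.92 (95% interval -0.00 to 1.84) and missed the threshold (adjusted p = 0.097). Without P7 replicate 3 it was 1.33 and passed (adjusted p = 0.026), and without P7 replicate 1 it was 0.38. In pools of picked cells, fewer cells of a type and less RNA per cell cannot be told apart.

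**Figure D1:**
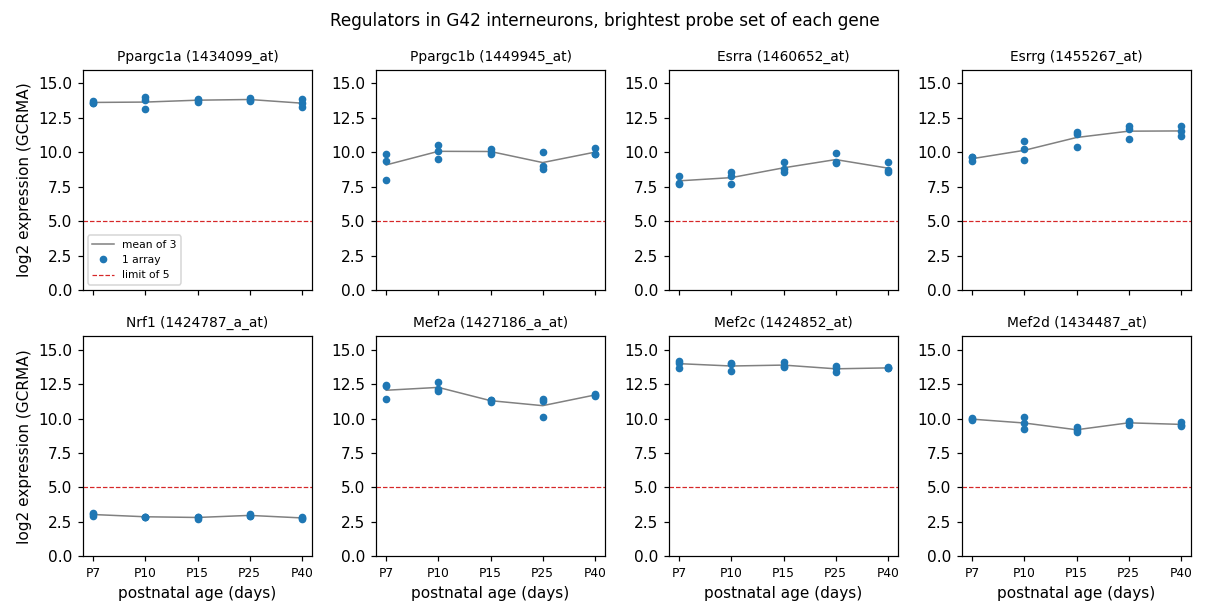
Log2 expression (y axis) by postnatal age (x axis) of the brightest probe set of each regulator. Points are single arrays, lines join the means of 3, and the dashed line is the limit of 5; Esrrg climbs across the ages, Esrra peaks at P25, Ppargc1a and Mef2c stay nearly level, and Nrf1 lies under the limit on every array. Heights are not comparable between probe sets.

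The nuclear receptor Esrrg showed the largest difference between P40 and P7 among the 7 tested members. This orphan receptor, a DNA-binding partner of PGC-1 coactivators, read 9.63, 9.34 and 9.64 at P7, 9.42, 10.22 and 10.79 at P10, 11.36, 10.39 and 11.47 at P15, 11.69, 11.91 and 11 at P25, and 11.94, 11.18 and 11.53 at P40. All arrays of P15, P25 and P40 lay above all arrays of P7, while P10 overlapped both P7 and P15. It averaged 11.55 ± 0.38 at P40, against 9.54 ± 0.17 at P7 (SD, n = 3 each), a 4.03-fold rise (log2 difference 2.01, SE 0.36, adjusted p = 4.6e-04, limma). The difference was 1.99 for P25 minus P7 and 1.53 for P15 minus P7, and both passed (adjusted p = 5.6e-04 and 0.0054). With the number of cells picked as a covariate, P15 minus P7 was 1.24 and missed the threshold (adjusted p = 0.17). P25 and P40 also lay above P10, by 1.39 and 1.41 (adjusted p = 0.012 and 0.0091). Adjusted over all probe sets, both these calls were lost without P10 replicate 1 (1.03 and 1.04), the first also without P25 replicate 2 (1.2) and the second without P40 replicate 1 (1.21). Between neighbouring ages no step of Esrrg passed, from 0.60 for P10 minus P7 to 0.02 for P40 minus P25, so the rise is placed by its ends and not by a single interval. A second Esrrg probe set, 1457896_at, averaged 4.95 ± 0.32 at P40 and 2.57 ± 0.19 at P7, but exceeded 5 on only 2 arrays and was not tested. The remaining one, 1421747_at, exceeded 5 on none.

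Esrra, the receptor through which PGC-1alpha drives many respiratory genes in muscle and other tissues, rose and was highest at P25. It read 7.69, 8.30 and 7.79 at P7, 8.26, 8.54 and 7.68 at P10, 8.76, 9.26 and 8.59 at P15, 9.30, 9.19 and 9.92 at P25, and 8.68, 9.31 and 8.56 at P40. All arrays of P15, P25 and P40 lay above all arrays of P7 and P10. At P25 it averaged 9.47 ± 0.39, against 7.92 ± 0.33 at P7 (SD, n = 3 each), a 2.92-fold rise (log2 difference 1.55, SE 0.32, adjusted p = 0.0015). P25 minus P10 was 1.31 (adjusted p = 0.0087). P40 minus P7 was 0.93, or 1.90-fold (SE 0.32, adjusted p = 0.03), and that call was lost under 8 of 29 alternatives, 3 of which left out 1 array: 0.70 with P40 replicate 2 dropped, 0.81 with P7 replicate 1 and 0.86 with P7 replicate 3, at adjusted p of 0.13, 0.084 and 0.078. P15 minus P7 was 0.95 (adjusted p = 0.037) and was lost under 13 of 28 alternatives, among them leaving out P15 replicate 1 (1.01), P15 replicate 2 (0.75), P7 replicate 1 (0.83) or P7 replicate 3 (0.88), with adjusted p between 0.054 and 0.15. From the highest level to the lowest the ages ran P25, P15, P40, P10 and P7, and no neighbours in that order differed beyond the threshold. Its second probe set exceeded 5 on 1 array.

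Nrf1, which binds promoters of many nuclear respiratory genes, could not be followed. All 4 of its probe sets stayed under 5 on every array, with a highest value of 4.28. At P40 the brightest, 1424787_a_at, averaged 2.79 ± 0.05, against 3.03 ± 0.13 at P7. The arrays gave no usable level for Nrf1 at any age, which does not show that the transcript is absent.

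Mef2c, which guides neuronal differentiation and synapse number, was bright at all ages. Its brightest probe set read 14.07, 14.19 and 13.71 at P7, 13.95, 13.45 and 14.06 at P10, 13.73, 13.85 and 14.08 at P15, 13.80, 13.67 and 13.38 at P25, and 13.64, 13.72 and 13.69 at P40. The arrays of P40 and P7 overlapped, and P40 minus P7 was -0.31 (95% interval -0.67 to 0.06, adjusted p = 0.15). The difference passed where each array was shifted to an equal median (-0.52, adjusted p = 0.011) and where the 5 probe sets were averaged (-0.51, adjusted p = 0.032). Mef2c is also used by excitatory neurons, microglia and endothelium, whose marker lists had 5 of 6, 6 of 8 and 7 of 7 members over 5 on no array; the exceptions were Camk2a, Csf1r and C1qb, with the levels given above. Their part in the Mef2c level was not tested.

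Mef2a, a MEF2 factor of mature neurons as well as muscle, was lower at P25 than at P7 and P10. It read 11.42, 12.41 and 12.35 at P7, 12.65, 12.16 and 11.99 at P10, 11.34, 11.21 and 11.36 at P15, 11.39, 10.12 and 11.31 at P25, and 11.66, 11.78 and 11.70 at P40. Every array of P25 lay below every array of P7 and P10. P25 averaged 10.94 ± 0.71, against 12.27 ± 0.34 at P10 (SD, n = 3 each), a 2.51-fold fall (log2 difference -1.33, SE 0.32, adjusted p = 0.0071), and P25 minus P7 was -1.12 (adjusted p = 0.011). P25 replicate 2 held the lowest value, and on the scale of all probe sets P25 minus P7 was -0.71 without it (adjusted p = 0.066), and -0.95 or -0.98 without P7 replicate 2 or 3 (adjusted p = 0.059 and 0.053). At P40 the level stood between these, with P40 minus P7 at -0.35 (95% interval -1.03 to 0.33, adjusted p = 0.39).

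Mef2d, another broadly expressed MEF2 factor, read 9.89, 9.98 and 10.01 at P7, 10.10, 9.68 and 9.26 at P10, 9.01, 9.41 and 9.15 at P15, 9.74, 9.84 and 9.50 at P25, and 9.49, 9.74 and 9.51 at P40. Only P15 minus P7 passed among its pairs of ages, at -0.77 (SE 0.24, adjusted p = 0.023). Adjusted over all probe sets, this call was lost without P7 replicates 2 or 3 or P15 replicates 1 or 3 (-0.76 to -0.68, adjusted p = 0.063 to 0.07). P40 minus P7 was -0.38 (95% interval -0.88 to 0.13, adjusted p = 0.21), although the arrays of P40 lay below those of P7. Its second tested probe set, 1437300_at, was called between no ages.

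Counted over the 7 tested members, 2 rose and 0 fell for P40 minus P7, where 27.5% of all genes tested were called higher and 17.6% lower. The arrays of the 2 ages did not overlap in 3 members, where 55.7% of all genes tested did not overlap. For P25 minus P7, 2 members rose and 1 fell, where 26.2% of all genes were called higher and 15.5% lower; for P15 minus P7 it was 2 and 1, where 20.9% and 11.1% were. For P25 minus P10, 2 rose and 1 fell, where 18.7% and 9.10% were. For P40 minus P10, 1 rose, where 21.4% were called higher. The F test across ages called Esrra, Esrrg and Mef2a (adjusted p = 0.0069, 9.9e-04 and 0.015), 3 of 7, where 47.2% of all genes were called. The members were thus called at about the rate of the array as a whole. In no step between neighbouring ages was a member called, where 3.60%, 11.4%, 4.86% and 0.673% of all genes were called in age order. At an unadjusted p under 0.05 those steps held Ppargc1b for P10 minus P7, Esrra, Esrrg and Mef2a for P15 minus P10, and Mef2a for P40 minus P25.

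Probe sets of a single gene disagreed most at P25. Ppargc1a was read by 5 probe sets, of which 1460336_at gave 10.33, 11.62 and 12.84 at P7, 12.39, 12.81 and 11.55 at P10, 11.73, 10.23 and 11.23 at P15, 7.65, 6.78 and 9.82 at P25, and 11.55, 10.89 and 10.88 at P40. All 3 arrays of P25 lay below all others. The fall at P25 was 11.4-fold against P7 (log2 difference -3.51, adjusted p = 0.0014) and 18.0-fold against P10 (-4.17, adjusted p = 9.6e-04), and both passed under all 22 alternatives. P40 minus P25 was 3.02 (adjusted p = 0.046) and was lost under 16 of the 22, being 2.37 without P25 replicate 2 (adjusted p = 0.26). The other 4 probe sets of Ppargc1a were called between no ages, and 3 of them differed between P25 and P7 by -0.02 to 0.22, with 1437751_at at 0.36. In 1456395_at the P25 arrays lay below all arrays of P15 and P40. Its P25 minus P15 was -0.75 and its P40 minus P25 was 0.58, and both missed the threshold (adjusted p = 0.26 and 0.54, limma).

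The same dip was read by some MEF2 probe sets. Mef2c 1421028_a_at gave 11.27, 12.07 and 11.92 at P7, 12.01, 11.60 and 10.71 at P10, 10.97, 11.63 and 10.99 at P15, 9.94, 8.07 and 9.56 at P25, and 11.05, 11.80 and 10.77 at P40, with P25 below every other array. P25 minus P7 was -2.57 (adjusted p = 5.7e-04), and P40 minus P25 was 2.02 (adjusted p = 0.041), or 1.46 without P25 replicate 2 (adjusted p = 0.21). Mef2c 1451506_at was also lowest at P25, at 11.08 ± 0.35. Its P25 minus P10 was -1.21 (adjusted p = 0.023, lost under 6 of 22 alternatives), and its P25 minus P7, -0.89, missed the threshold (adjusted p = 0.064). For Mef2c 1421027_a_at P25 minus P10 was -0.78 (adjusted p = 0.0086), but P25 was not set apart from P15 and P40. Its P25 minus P15 was -0.16 and its P40 minus P25 was 0.28 (adjusted p = 0.74 and 0.62, limma). Mef2a 1452347_at gave -1.13 for P25 minus P7 and 1.26 for P40 minus P25 (adjusted p = 0.003 and 0.028), the second being 0.95 without P25 replicate 2 (adjusted p = 0.15). A further Mef2a probe set, 1421252_a_at, gave -0.88 for P25 minus P7 (adjusted p = 0.013; -0.75 without P25 replicate 2 and -0.72 without P7 replicate 3, adjusted p = 0.057 each), while 1427185_at was called between no ages. Mef2c 1421027_a_at was lower already at P15, by -0.80 against P7 (adjusted p = 0.006), and at P40, by -0.68 (adjusted p = 0.0098); with the cells picked as a covariate these were -0.41 and -0.48 (adjusted p = 0.35 and 0.058). Mef2c 1451507_at was also lower at P40 than at P7 (-0.83, adjusted p = 0.035), which missed the threshold without P7 replicate 1 (-0.65), P7 replicate 2 (-0.78) or any 1 array of P40 (-0.92 to -0.71), and under 2 other alternatives.

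Over the 19 tested member probe sets, 7 were called lower for P25 minus P10, where 9.74% of all probe sets were, and 3 higher for P40 minus P25, where 1.27% were. For P25 minus P7 there were 2 higher and 6 lower, where 23.6% and 15.2% of all probe sets were called. For P40 minus P7 there were 2 higher and 2 lower, where 26.0% and 15.9% were, and the F test called 8, where 44.6% were. The probe sets that dipped belong to 3 genes and share arrays, so they are not separate observations. On those arrays the beta-actin control for the middle of the transcript read 9.53, 6.48 and 9.42, against 10.50 to 11.96 at other ages, with P25 replicate 2 lowest, as in Ppargc1a 1460336_at, Mef2c 1421028_a_at and the 3 falling Mef2a probe sets. The part of the actin controls and of the oligodendrocyte transcripts in the dip was not tested. Prkaa2, a catalytic subunit of the AMP-activated kinase that phosphorylates PGC-1alpha, dipped on the same arrays, at 6.02, 4.58 and 7.87 at P25, against 9.0 to 10.15 at P15 (log2 difference -3.43, adjusted p = 0.0031).

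**Figure D2:**
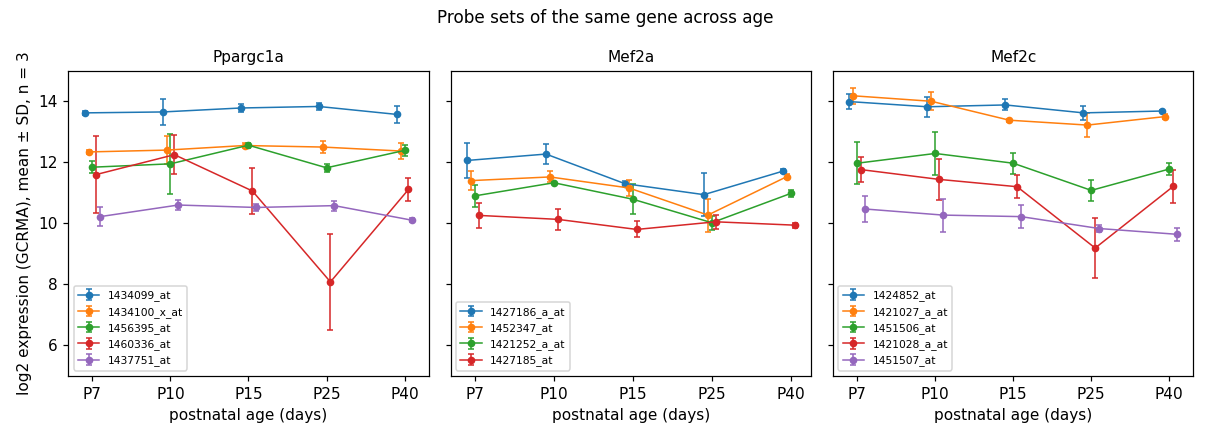
Mean ± SD of 3 arrays (log2, y axis) at each age (x axis) for every tested probe set of Ppargc1a, Mef2a and Mef2c, 1 colour per probe set, slightly offset. Ppargc1a 1460336_at, Mef2c 1421028_a_at and 1451506_at, and 3 of the 4 of Mef2a dip at P25, which the brightest probe set of Ppargc1a does not. Mef2c 1451507_at is lowest at P40, and heights are not comparable between probe sets.

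The listed transcripts known to depend on PGC-1alpha rose, while Ppargc1a was called between no ages in its brightest probe set. Of the 4 listed, all 4 rose for P40 minus P7, with a median log2 difference of 4.83, where the median of all genes tested was 0.18, and all 4 were already called for P10 minus P7, where 2.37% of all genes were called higher. Pvalb, the calcium buffer of these cells, averaged 14.28 ± 0.20 at P40 and 3.62 ± 0.72 at P7, at least 622-fold higher. Syt2, the fast calcium sensor of vesicle release whose promoter is shown above, read 7.25, 6.44 and 7.92 at P7, 10.39, 10.61 and 10.81 at P10, 11.40, 10.59 and 10.78 at P15, 12.41, 12.53 and 13.02 at P25, and 12.76, 11.87 and 12.51 at P40. It rose 36.1-fold for P40 minus P7 (adjusted p = 7.0e-08) and passed for P10 minus P7 (log2 difference 3.40) and P25 minus P15 (1.73, adjusted p = 0.012). Nefh, the heavy neurofilament subunit, rose 22.5-fold, and Cplx1, a complexin that controls fusion of vesicles, rose 1.75-fold. In the first interval, P10 minus P7, Ppargc1a differed by 0.03 and Esrrg by 0.60 (adjusted p = 0.96 and 0.43).

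**Figure D3:**
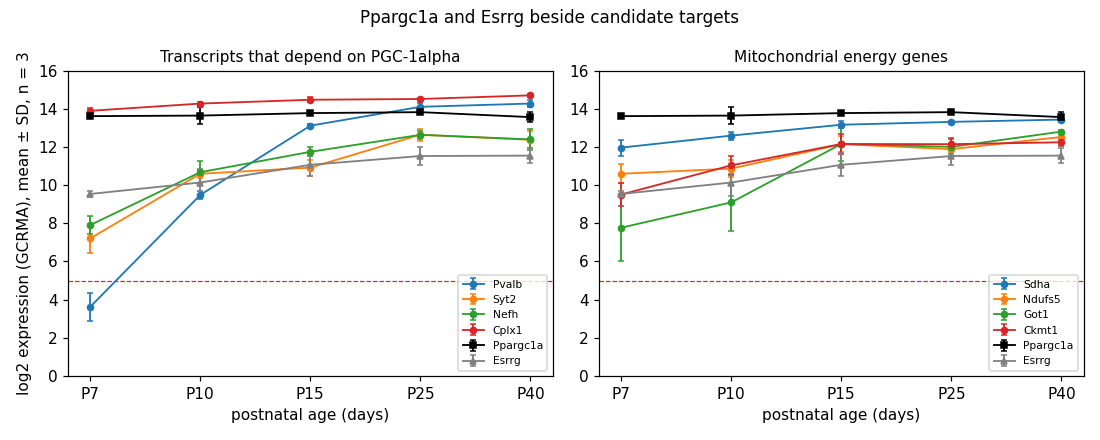
Ppargc1a and Esrrg (black and grey) beside transcripts that depend on PGC-1alpha in cortex (left) and the energy genes Sdha, Ndufs5, Got1 and Ckmt1 (right), as mean ± SD of 3 arrays on the log2 scale at each age. Pvalb, Syt2 and Nefh climb steeply by P10, and the energy genes have higher means at P40 than at P7, while Ppargc1a is level; the dashed line is the limit of 5, and heights are not comparable between probe sets.

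Many of the listed energy genes rose between P7 and P40. Of 72 tested nuclear genes of oxidative phosphorylation, 35 rose and 2 fell for P40 minus P7, with a median log2 difference of 0.42. Of all genes tested, 27.5% were called higher and 17.6% lower, and their median was 0.18. In the steps, 0 were called for P10 minus P7 and 25 higher for P15 minus P10, where 8.57% of all genes were called higher. The count for that step moved with single arrays. It was 5 or 7 without replicate 2 or 3 of P15, the arrays with the low spiked control, and 9 or 8 without P10 replicate 1 or 2. Leaving out both these P15 arrays leaves 1 at that age, so such a fit cannot decide the step. With the cells picked as a covariate the count was 1. Cells ran from 23 to 45 at P15 and from 47 to 72 at P10, so their number and this step cannot be told apart. The astrocyte sum also differed in this step, at 5.67 to 6.25 on the P15 arrays, against 8.48 to 9.98 on the P10 arrays, and its part was not tested. Sdha, the flavoprotein subunit of complex II, rose 2.78-fold, Ndufs5 of complex I 3.81-fold and Ndufa2, also of complex I, 1.81-fold for P40 minus P7 (adjusted p = 1.8e-05, 7.0e-05 and 3.1e-05). The number that rose was 20 where arrays were shifted to equal medians, and 20 with the beta-actin 3′ to 5′ difference as a covariate. The 2 that fell were Cox7c, a cytochrome oxidase subunit (-1.66, adjusted p = 0.035; not called with P7 replicates 1 or 3 or P40 replicates 1 or 3 dropped, -1.67 to -1.15, adjusted p = 0.071 to 0.15), and Uqcrb of complex III (-0.31, adjusted p = 0.041), whose sign turned (0.27, adjusted p = 0.36) with its most variable probe set.

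Of 32 tested genes of pyruvate oxidation, the tricarboxylic acid cycle and mitochondrial carriers, 24 rose and 2 fell for P40 minus P7, with a median of 0.97. The shares of all genes were again 27.5% and 17.6%, with a median of 0.18. For P15 minus P10, 16 rose, but 0 were called without P15 replicate 2 or with either covariate, and 4 or 5 without P15 replicate 3 or P10 replicate 1 or 2. Ckmt1, the mitochondrial creatine kinase, rose 6.70-fold, Got1, the aspartate aminotransferase of the malate-aspartate shuttle, 32.9-fold, and Idh3b, a subunit of isocitrate dehydrogenase, 1.95-fold (adjusted p = 1.4e-05, 9.8e-05 and 8.7e-05). The log2 difference of Got1 was 5.04, and without P7 replicate 1 or P7 replicate 3 it was 5.98 or 4.31. With the beta-actin difference as a covariate, 10 genes of this group rose. Cpt1a, which brings fatty acids to mitochondria, fell 4.48-fold (adjusted p = 0.0024). Cs, citrate synthase, fell by 0.41 (adjusted p = 0.011), but its difference was 0.06 with its probe sets averaged (adjusted p = 0.78).

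In promoters, AAGGTCA was found in 5 of 62 oxidative phosphorylation genes (8.06%) and in 3 of 33 genes of the second group (9.09%). Those 3 were Ckmt1, Got1 and Acadm. Among all 27025 genes with a window, 4.7% held it. Of the 5, Ndufs5 and Ndufb2 were called higher for P40 minus P7 (log2 differences 1.93 and 0.52). Atp5l and Atp5g3 missed the threshold (0.61 and 0.04, adjusted p = 0.097 and 0.82, limma), and Ndufb4 was not tested. The full element TCAAGGTCA was in Atp5g3, a subunit of ATP synthase, and in Syt2, where 0.422% of all genes held it. The NRF1 element was in 3 of the 62 (4.84%), Atp5g2, Atp5k and Cox6a1, where 0.877% of all genes held it. None of these 3 was called for P40 minus P7 (0.80, 0.10 and 0.14, adjusted p = 0.13, 0.53 and 0.21, limma). The cAMP response element was in 4 of the 62 (6.45%), where 1.77% of all genes held it. Of these 4, Ndufa10, Ndufb2 and Uqcrfs1 were called higher for P40 minus P7, and Cycs was not called. Whether a motif goes with a rise was not tested.

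Of 13 tested genes of the mitochondrial DNA machinery, a textbook target of NRF1 and PGC-1alpha, 3 rose and 1 fell for P40 minus P7, where 27.5% of all genes were called higher and 17.6% lower, and the median was 0.74. Polg, the catalytic subunit of the mitochondrial DNA polymerase, averaged 8.77 ± 0.23 at P40 and 6.18 ± 1.99 at P7 (SD, n = 3 each; log2 difference 2.58, adjusted p = 0.006), with 3.54 without P7 replicate 2 and 1.56 without P7 replicate 3. Lonp1, the matrix protease, rose 2.53-fold and Mterf3, a regulator of mitochondrial transcription, 2.02-fold, while Polg2, the accessory polymerase subunit, fell 2.67-fold. The call of Mterf3 was lost without P7 replicates 2 or 3 or P40 replicates 1 or 3 (from 0.81 to 1.0) and under 5 further alternatives, down to 0.09 with its probe sets averaged (adjusted p = 0.75), and that of Polg2 without the same 4 arrays (-1.48 to -1.11). Tfam, the packaging and transcription factor of mitochondrial DNA, differed by 0.57 and missed the threshold (adjusted p = 0.31).

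Of 21 tested partners and modifiers of the PGC-1 coactivators, 4 rose and 5 fell for P40 minus P7, near the 27.5% and 17.6% of all genes, with a median of -0.20. Lpin1, a phosphatase that also amplifies PGC-1alpha in mouse liver, rose 4.29-fold (adjusted p = 3.1e-04), and the AMP-activated kinase subunits Prkag1 and Prkaa1 rose 2.21-fold and 2.64-fold (adjusted p = 0.0014 and 0.015). The call of Prkaa1 was lost without P7 replicate 3 (0.89) or P40 replicate 1 (1.27). Crtc1, a coactivator of CREB, fell 2.52-fold, and the steroid receptor coactivators Ncoa2 and Ncoa3 fell 2.12-fold and 2.87-fold (adjusted p = 0.0036, 0.0037 and 0.0099). The call of Ncoa3 was lost without P7 replicate 3 (-1.12) or P40 replicate 1 (-1.21) and under 3 further alternatives, down to -0.26 with its probe sets averaged (adjusted p = 0.4). Pprc1, the other coactivator of the family, differed by -0.07, the deacetylase Sirt1 by -0.37 and the corepressor Nrip1 by -0.57, with adjusted p = 0.89, 0.51 and 0.3. Prkaa2 differed by 0.73 (adjusted p = 0.31).

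Of 11 other nuclear receptors and respiratory factors tested, 4 rose and 1 fell, against the same shares of all genes. Nr1d2, the clock repressor REV-ERB beta, averaged 12.27 ± 0.21 at P40 and 8.82 ± 1.06 at P7, a 10.9-fold rise (log2 difference 3.45, adjusted p = 1.6e-04; 4.06 without P7 replicate 1). Rora, its activating counterpart, rose 3.85-fold (log2 difference 1.95, or 1.28 without P7 replicate 1), and Rxra, a dimer partner of nuclear receptors, at least 3.47-fold. Thra, a thyroid hormone receptor, fell 1.56-fold (adjusted p = 0.0047). Gabpa, the DNA-binding subunit of the respiratory factor NRF2, differed by 0.06 (adjusted p = 0.94), and Esrrb was not among the genes tested.

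**Figure D4:**
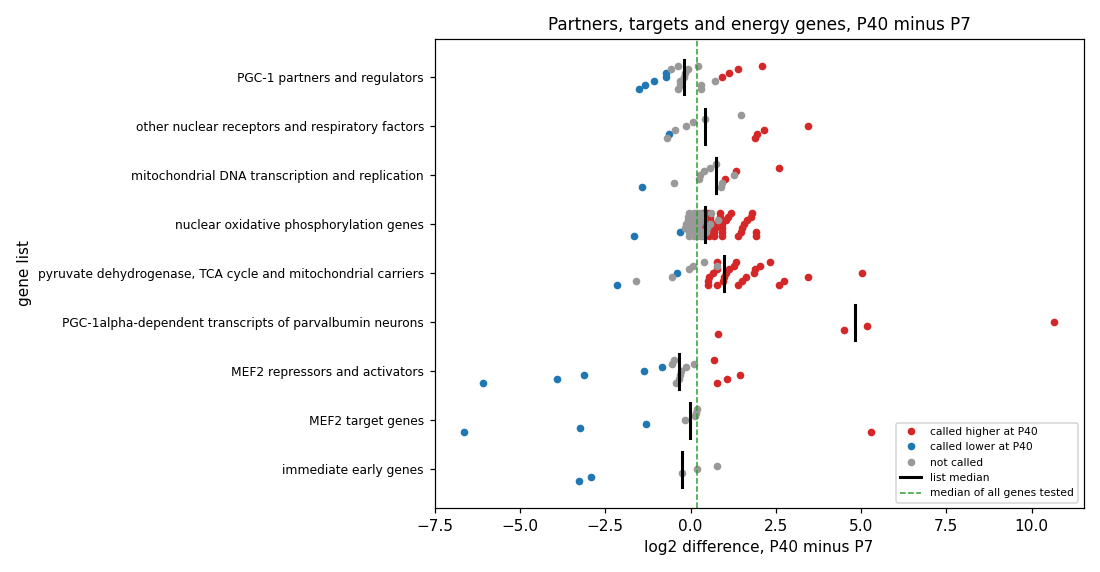
Log2 difference P40 minus P7 (x axis) of each tested gene in 9 lists (y axis), coloured by call, with the list median as a black bar and the median of all genes tested, 0.18, as a dashed line. The 2 energy lists lie mostly to the right, and the lists of PGC-1 partners and of MEF2 repressors and activators spread to both sides.

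Of 17 tested repressors and activators of MEF2, 4 rose and 5 fell for P40 minus P7, where 27.5% and 17.6% of all genes did, with a median of -0.33. Prkd1, a kinase that exports class IIa deacetylases from the nucleus, read 9.43, 9.78 and 8.87 at P7, 7.38, 7.20 and 6.51 at P10, 4.04, 5.54 and 4.43 at P15, 4.80, 6.38 and 6.61 at P25, and 3.22, 2.75 and 3.79 at P40. It was at least 20.5-fold lower at P40 than at P7 (adjusted p = 5.2e-07). Camk4, a calcium-dependent kinase of the nucleus, fell 8.67-fold, and Mapk7 (ERK5), which phosphorylates MEF2, was at least 4.12-fold lower (adjusted p = 3.1e-06 and 1.8e-05). Mapk14 (p38 alpha) rose 1.63-fold, Sik3, a salt-inducible kinase, 1.73-fold and Cdk5, a neuronal kinase known to inhibit MEF2, 2.10-fold (adjusted p = 0.0054, 0.0068 and 0.021). Cdk5 missed the threshold when P7 replicate 2 (0.88) or 3 (0.97) was dropped, or P40 replicate 2 (0.75). With the beta-actin difference as a covariate none of the 4 was called, and Cdk5 was at 0.21. Among the class IIa deacetylases, Hdac9 fell 2.61-fold (log2 difference -1.38, adjusted p = 0.0074), while Hdac4 and Hdac5 differed by -0.49 and -0.44 and missed the threshold (adjusted p = 0.19 and 0.49).

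Of 8 tested genes listed as MEF2 targets, 1 rose and 3 fell for P40 minus P7, with a median of -0.01. Of all genes tested, 27.5% were called higher and 17.6% lower, with a median of 0.18. So few genes do not set the list apart from those shares. Kcna1, a potassium channel of axons, averaged 13.88 ± 0.57 at P40 and 8.59 ± 0.71 at P7, a 39.0-fold rise (adjusted p = 1.7e-08). Klf4, a zinc finger factor, was at least 43.0-fold lower at P40 (log2 difference -6.64, or -7.28 without P7 replicate 3), and Nr4a1, an activity-induced nuclear receptor, fell 9.39-fold (adjusted p = 3.7e-05 and 1.6e-04). Jun, a subunit of AP-1, fell by 1.31 (adjusted p = 0.035), which missed the threshold when 1 of 4 arrays was dropped: P7 replicate 1 (-1.31) or 2 (-1.16), or P40 replicate 1 (-1.03) or 3 (-1.34). Klf4, Nr4a1 and Jun are also induced when tissue is dissociated, as other immediate early genes are. Of the latter, 2 of 5 tested fell, Egr1 7.49-fold and Fos 9.58-fold (adjusted p = 4.8e-05 and 1.5e-04), where 17.6% of all genes were called lower. The part of induction by dissociation in the fall of the MEF2 targets was not tested. The promoters of Jun and Klf2 hold the MEF2 consensus, 2 of 9 of these genes with a window, where 0.592% of all genes hold it. It is also in Atf3, 1 of 6 immediate early genes with a window. Among the repressors and activators of MEF2 it is in Hdac5, 1 of 15.

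The genes with the profile nearest to a member were named by the root mean square difference over the 15 arrays after centring, among tested genes, for the 3 members called by the F test. For Esrrg they were Map7d2 (0.27), Arhgef3 (0.28) and Crebzf (0.29), where the median over all genes was 0.96. Map7d2, a microtubule-associated protein, averaged 10.49, 11.40, 12.31, 12.68 and 12.66 from P7 to P40, as Esrrg averaged 9.54, 10.14, 11.07, 11.53 and 11.55. For Esrra they were Dipk1b (0.28), Cisd2 (0.29), an iron-sulphur protein of the endoplasmic reticulum and mitochondrial outer membrane, and Mvb12a (0.30), where the median was 0.79. Cisd2, like Esrra, was highest at P25, at 10.68 ± 0.21. For Mef2a they were Sltm and Tenm2 (0.31 each) and Taok3 (0.32), where the median was 0.88. Like Mef2a, all 3 were lowest at P25.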

How the data were processed

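Per the labels, RNA of picked G42 neurons was amplified and hybridized to 15 arrays, from 3 animals an age. The authors' deposited values are on the log2 scale, 1 per probe set and array, made with GCRMA per the submitters' processing notes; its version is not given in the sources used here. GCRMA corrects background by probe sequence, so values under about 5 carry no order, and amplification from the 3′ end makes probe sets of a gene differ with RNA integrity. No depth applies to arrays; their number limits the precision. Values were used as deposited. The 15 columns ran from 0.51 to 16.13 and correlated by 0.921 to 0.976 within an age; no 2 were identical.

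Each gene was represented by the brightest, on average, of the probe sets annotated to it alone (932 probe sets with several genes and 9160 with none were left out), with the filter given above. limma 3.58.1 in R 4.3.3 fitted a mean per age with a trend in the prior variance (10 residual degrees of freedom, median prior 4.85). The 10 pairs of ages and a moderated F test were two-sided and adjusted by Benjamini-Hochberg over 9663 genes, or over 15381 probe sets where a probe set is named; a call is an adjusted p under 0.05. The procedure was tested on simulated data with 200 changed genes. SEs are limma's moderated ones, for log2 differences, while ± gives the SD of 3 arrays. No fold is printed unless the means of both ages exceed 5, except as a bound ("at least") that sets the higher mean against 5 when no array of the dimmer age was over 5. The labels name no batch.

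The members and the 9 gene lists were chosen with earlier results of these data known; 264 of the 277 list symbols were found. Named were all members, for each list and direction up to 3 genes called for P40 minus P7, by lowest adjusted p, and Pvalb, Syt2, Nefh, Cplx1, Tfam, Gabpa, Pprc1, Esrrb, Sirt1, Prkaa1, Prkaa2, Nrip1, Hdac4, Hdac5 and Hdac9, with the marker genes and the nearest profiles. Genes named for a motif in their promoter were named by that match. Promoters are the 250 bases before RefSeq starts on GRCm38.p6; those of Ppargc1b were not used here. The 29 alternatives, 15 of which dropped 1 array each, changed normalization, filter, probe set, variance model, covariates and arrays. Python 3.11.15 with pandas 2.3.3 and matplotlib 3.10.9 made the promoter search and the plots.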

Additional observations from a re-analysis of the deposited data

How the results depend on the processing

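P40 minus P7 of Esrrg passed under each of the 28 alternatives that gave it a value (log2 difference 1.42 to 2.2), and so did P25 minus P7 of Esrra (28 alternatives, 0.91 to 1.73). The tested members called higher at P40 than at P7, 2 as reported, were 1 under quantile normalization, equal array medians, the most variable probe set, array weights, the beta-actin covariate and a fit of P40 and P7 only, and 3 with the cells covariate; 1 member was called lower, against 0 as reported, under equal medians, no filter and probe sets averaged. Steps between neighbouring ages, with 0 member calls as reported, gave 1 under quantile normalization, equal medians and averaged probe sets, 4 under the most variable probe set and 5 under array weights, and the F test called 5 members, against 3, under equal medians, averaged probe sets and array weights. In all genes for P40 minus P7, 5523 were lower without a filter, against 1703, and 1368 higher with the beta-actin covariate, against 2662.

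Counts of the lists for P40 minus P7 moved as follows. Oxidative phosphorylation genes called higher were 20, against 35, under equal medians and the beta-actin covariate; those lower, 2 as reported, were 4 under equal medians, 1 under quantile normalization, averaged or most variable probe sets, no prior trend, a fit of 2 ages and both settings that left out P15 replicates 2 and 3, and 0 under either covariate. For P15 minus P10, 25 oxidative phosphorylation and 16 citrate cycle list genes were higher as reported. The first were 9 under equal medians, 11 with no prior trend and 5 with the beta-actin covariate. The 2 lists gave 13 and 6 without a filter and 1 and 0 with the cells covariate, and the second gave 0 with the beta-actin covariate. Both settings without P15 replicates 2 and 3 leave 1 array of P15, so their counts for this step are not given. In the citrate cycle list for P40 minus P7, 10 were higher, against 24, with the beta-actin covariate, and lower were 1 under averaged or most variable probe sets and no prior trend and 0 with that covariate, against 2. PGC-1 partners called higher were 2 under either covariate, against 4, and lower were 2 with averaged probe sets or the beta-actin covariate and 3 with the cells covariate, against 5. Other nuclear receptors called lower were 2, against 1, under quantile normalization, equal medians, no filter, averaged or most variable probe sets and array weights, and 2 were higher, against 4, with the filter at 7. For mitochondrial DNA genes, 5 and 6 were higher with averaged and most variable probe sets, against 3, and lower were 2 without a filter and 0 under either covariate, against 1. MEF2 repressors and activators called higher were 2 with averaged probe sets or the cells covariate and 0 with the beta-actin covariate, against 4, and 2 MEF2 targets were higher with the most variable probe set, against 1. Uqcrb turned to 0.27 and Cs to 0.50 with the most variable probe set, and Cs to 0.06 with probe sets averaged; the cause was not tested.

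Among the 19 member probe sets, P40 minus P7 called 1 higher, against 2, under equal medians, the beta-actin covariate and without P25 replicate 2 and P15 replicates 2 and 3, an alternative chosen after seeing the data, and lower 6 without a filter and 1 under either covariate and that alternative, against 2. It also called 4 lower for P25 minus P10, against 7, and 0 higher for P40 minus P25, against 3, where equal medians gave 1 and the beta-actin covariate 0. Fewer samples enter it by construction. The replicate numbers mark no shared animal, and same-numbered arrays deviated together no more than others (median r -0.07 over 30 pairs of arrays, and 0.02 over 60 pairs with other numbers). With the replicate number as a block the counts of members stayed at 2 higher and 0 lower, while member probe sets were 1 lower for P40 minus P7 and 1 higher for P40 minus P25.

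Dropping 1 array at a time gave 1 to 2 members higher and 0 lower, 0 to 2 step calls (1 without P7 replicate 1 or P25 replicate 2, and 2 without P10 replicate 3) and 3 to 4 members by the F test. In the lists it gave 2 to 4 PGC-1 partners higher and 3 to 5 lower, 2 to 4 mitochondrial DNA genes higher and 0 to 1 lower, 28 to 40 oxidative phosphorylation genes higher and 0 to 2 lower, and 2 to 4 MEF2 repressors and activators higher. For P15 minus P10 it gave 5 to 31 oxidative phosphorylation and 0 to 19 citrate cycle list genes. Member probe sets ran from 1 to 3 higher and 1 to 2 lower for P40 minus P7, and from 0 to 3 higher for P40 minus P25. The log2 difference of Ppargc1a ran from -0.19 to 0.08, turning positive without P40 replicate 2.

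With 3 arrays an age, a difference that missed the threshold does not show that a member was unchanged. Probe positions were not used here, and differences between probe sets of a gene were not traced to transcripts. Levels under 5 carry no order, which leaves Nrf1 without a reading.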
